A study of Mus musculus with 8 samples.

Results

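Glycolysis splits glucose into pyruvate and lactate, and the pentose phosphate pathway branches off it to make NADPH and ribose. Expression of 35 genes that carry out or steer these pathways was followed in leukaemic mouse bone marrow cells with and without an shRNA against Fubp1. The 35 were chosen by symbol, as glucose and lactate transporters, the enzymes of each step with their isoforms, the kinases that set the rate of phosphofructokinase and of pyruvate dehydrogenase, and the pentose phosphate enzymes. All 35 were among the 47729 genes of the deposited table, and 33 had enough counts to be tested. Eno2 and Ldhb did not.

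The samples were 8 C57BL/6 libraries, each from 1 mouse, with 4 in each group. Both groups shared the disease model: marrow of donors treated with 5-fluorouracil was transduced with a retrovirus that carries BCR-ABL1, the kinase fusion behind chronic myeloid leukaemia, and transplanted into sublethally irradiated recipients. The groups differed in a lentiviral shRNA, which was scrambled in the control group and directed at Fubp1 in the knockdown group. Live cells without lineage markers that carried the reporters of both viruses were sorted, so cells without the viruses were gated out. The sources used here do not give the ages of the mice or the shRNA sequence.

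As background, glucose enters blood cells mainly through the transporters encoded by Slc2a1 (GLUT1) and Slc2a3 (GLUT3), and hexokinases trap it by phosphorylation. Hexokinase, phosphofructokinase and pyruvate kinase catalyse the steps that are irreversible in the cell. Each step with several isoforms uses enzymes with different kinetics and tissue distribution. The transcription factors HIF1 and MYC are known to raise many of these genes, BCR-ABL1 is known to raise glucose uptake, and FUBP1 is known as a regulator of Myc transcription.

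Total counts ran from 22465303 to 44761356 per library, and expression is given as CPM, a gene's count relative to the scaled library total. Values per mouse are listed in the order of replicates 1 to 4. The targeted gene Fubp1 measured 296, 284, 291 and 396 CPM in the scrambled group and 281, 228, 220 and 239 CPM in the knockdown group. Its groups did not overlap, and it missed the threshold over all genes (log2 fold change -0.39, SE 0.12, adjusted p = 0.0604). On the first principal component, which held 61.1% of the variance, knockdown replicate 3 lay at -29.0, among the scrambled libraries at -57.3 to -13.7, and the remaining knockdown libraries at 34.1 to 81.2. Erythroid markers were abundant in both groups, with 12 listed genes summing to 6978 to 7634 CPM in scrambled libraries and 5200 to 7943 CPM in knockdown libraries. Of these 12, 5 fell (Gata1, Klf1, Epor, Ermap and Car2) and 3 rose: the globin genes Hbb-bs (log2 fold change 1.63) and Hbb-bt (1.17) and the haem synthesis gene Alas2 (1.40). T cell markers summed to at most 0.322 CPM in any library. Early granulocyte markers, which bear on some results below, differed widely between libraries. Knockdown replicate 1 alone held 332 CPM of the collagen gene Col1a1, with the other stromal markers Cxcl12, Lepr and Pdgfra at 0.202 CPM or less there.

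Of the 33 tested members, 11 rose and 1 fell in the knockdown. The 11 make 33.3% of the members, against a background of 8.02% of all 13462 tested genes called higher; the 1 makes 3.03%, against 7.29% called lower. The median log2 fold change was 0.23 over the members and 0.00 over all tested genes, and the fitted change was above 0 in 25 members (75.8%) against 50.2% of all genes. The knockdown libraries lay wholly above the scrambled ones in 13 members (39.4%, background 9.54%) and wholly below in 2 (background 11.1%), 15 in all (background 20.7%). The members were chosen with earlier results of these data known, so these shares describe them and are no independent support. Calls are by edgeR's quasi-likelihood test with Benjamini-Hochberg adjustment over all genes, at 0.05. Without scrambled replicates 1 to 4 in turn, 10, 4, 6 and 7 members were called higher, against backgrounds of 2.73, 1.99, 2.45 and 5.71%. Without knockdown replicates 1 to 4 in turn, 8, 6, 13 and 8 members were called higher, against backgrounds of 3.96, 3.83, 14.1 and 5.06%.

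**Figure D1:**
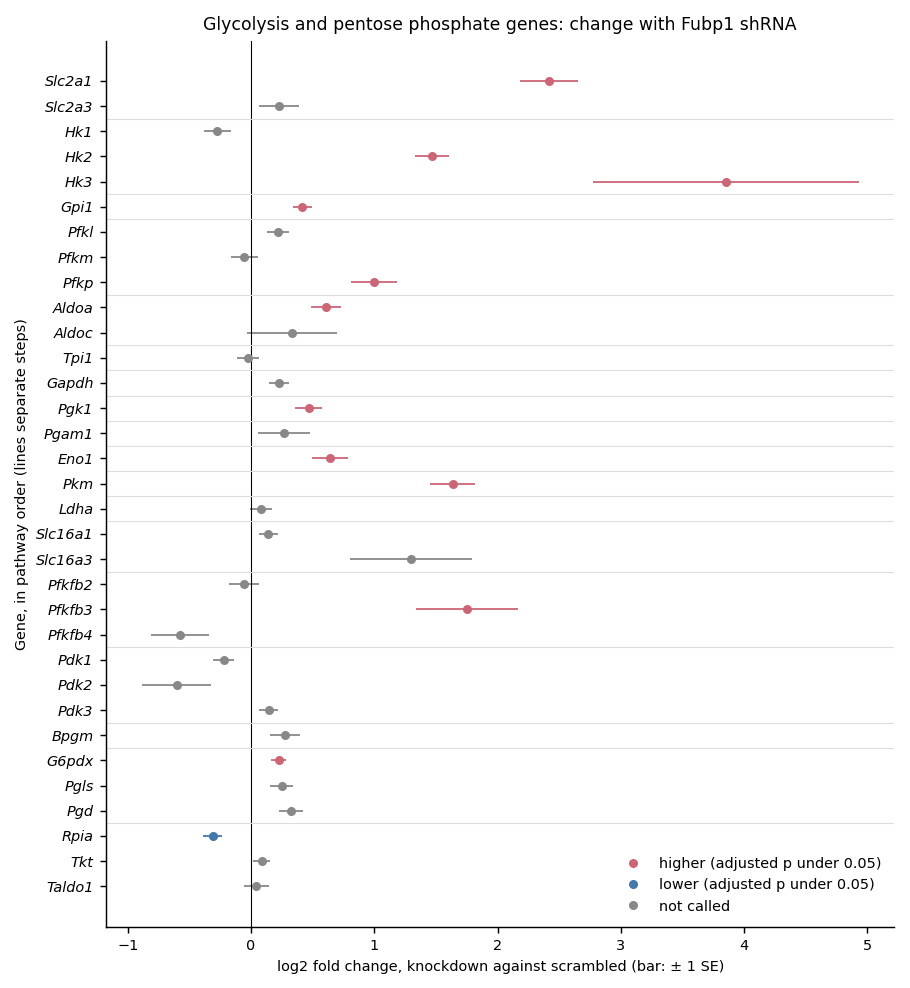
Log2 fold change of the 33 tested members, knockdown against scrambled, with bars of 1 standard error, in pathway order; lines separate the steps. The increases of Slc2a1 (2.42), Hk2 (1.47), Pkm (1.64), Pfkfb3 (1.75) and Hk3 (3.85) stand out, and isoforms of 1 step spread widely.

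Of the 2 glucose transporters, the less abundant rose. Slc2a1 (chr4:119108711-119137983, plus strand, GRCm38), which encodes GLUT1, measured 6.27, 4.59, 5.17 and 5.80 CPM in the scrambled group and 44.3, 21.3, 26.3 and 24.9 CPM in the knockdown group. Every knockdown library exceeded every scrambled one, and replicate 1 was the highest. The gene rose 5.35-fold (log2 fold change 2.42, SE 0.24, adjusted p = 0.00192). Without knockdown replicate 1, the library that also carried Col1a1, the log2 fold change was 2.15. Slc2a3, which encodes GLUT3, started at a far higher level, with 124, 110, 116 and 135 CPM in scrambled libraries and 175, 154, 142 and 96.5 CPM in knockdown libraries. Its groups overlapped, since knockdown replicate 4 was the lowest of all 8 libraries, and it did not pass (0.23, SE 0.16, adjusted p = 0.374; 0.0407 without that library). Per kb of merged exons, Slc2a1 was 1.67 in scrambled and 8.96 in knockdown libraries and Slc2a3 was 30.6 and 35.9 CPM per kb. Slc2a1 thus made up 5.17 ± 0.420% of the summed transporter level per kb in scrambled and 20.02 ± 4.56% in knockdown libraries (SD, n = 4 per group).

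Among hexokinases, the minor isoforms rose and the main one did not pass the test. Hk1, the housekeeping hexokinase of red and other blood cells, measured 1180, 1184, 1229 and 1294 CPM in scrambled libraries and 1084, 1046, 1136 and 774 CPM in knockdown libraries. The knockdown libraries all lay below the scrambled ones, but the difference did not pass (log2 fold change -0.27, SE 0.11, adjusted p = 0.117). Hk2 (chr6:82725025-82774454, minus strand), the inducible hexokinase of growing tissue, measured 16.5, 15.4, 20.2 and 18 CPM in scrambled libraries and 42.9, 60.2, 40.9 and 49.3 CPM in knockdown libraries. It rose 2.76-fold without overlap (1.47, SE 0.14, adjusted p = 0.00192). Hk3 (chr13:55005985-55021385, minus strand), a hexokinase of myeloid cells, measured 0.860, 2.62, 7.45 and 2.20 CPM in scrambled libraries and 49.5, 29.96, 2.35 and 110 CPM in knockdown libraries. Knockdown replicate 3 lay inside the scrambled range while the remaining 3 were far above it, so the rise (3.85, SE 1.08, adjusted p = 0.0482) was carried by those 3 mice. With 1 library left out, Hk3 kept its call without knockdown replicate 3 and lost it without each of the other 7 (adjusted p up to 0.125) and with limma-voom (0.248). Per kb, Hk1 made up 98.4 ± 0.435% of hexokinase in scrambled and 89.6 ± 7.34% in knockdown libraries (SD, n = 4 per group), from 96.7% in replicate 3 to 79.3% in replicate 4. Hk2 made up 1.22 ± 0.119% and 3.76 ± 0.817%.

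The steps down to the split into triose phosphates moved upward through 1 gene each. Gpi1 (chr7:34201330-34230336, minus strand), the only isomerase between glucose and fructose 6-phosphate, measured 327, 291, 275 and 273 CPM in scrambled libraries and 390, 390, 355 and 420 CPM in knockdown libraries, with no overlap. It rose modestly (log2 fold change 0.42, SE 0.08, adjusted p = 0.0123; 0.0504 without scrambled replicate 2). Phosphofructokinase commits sugar to glycolysis and works as tetramers of 3 subunits. Of these the platelet-type subunit Pfkp (chr13:6579768-6648777, minus strand) rose from 83.4, 50.7, 55.4 and 87.7 to 145, 150, 139 and 120 CPM, without overlap (1.00, SE 0.18, adjusted p = 0.0141). Pfkp overlaps Pitrm1 on the opposite strand, which had 651% of its counts; Pitrm1 measured 700 ± 34.9 and 631 ± 68.2 CPM (SD, n = 4 per group; adjusted p = 0.220). The liver-type Pfkl (181 ± 21.6 and 210 ± 13.1 CPM, adjusted p = 0.115) and the muscle-type Pfkm (227 ± 16.4 and 219 ± 31.5 CPM, adjusted p = 0.769) did not pass and overlapped between groups; Pfkl passed without scrambled replicate 1 (0.0466). Aldoa (chr7:126795234-126800751, minus strand), the main aldolase of blood cells, rose from 621, 450, 406 and 491 to 684, 769, 805 and 735 CPM (0.61, SE 0.12, adjusted p = 0.0179; 0.0643 without scrambled replicate 2). Its brain-type relative Aldoc stayed between 0.935 and 2.51 CPM in all libraries (adjusted p = 0.566).

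In the later steps of glycolysis, pyruvate kinase stood out. Pkm (chr9:59656368-59679375, plus strand), which makes pyruvate and ATP, measured 147, 138, 107 and 181 CPM in scrambled libraries and 451, 426, 347 and 553 CPM in knockdown libraries. It rose 3.11-fold with a wide gap between the groups (1.64, SE 0.18, adjusted p = 0.00308). Gene counts do not separate its splice forms M1 and M2. Eno1, the ubiquitous enolase (chr4:150236721-150248879, plus strand), rose from 185, 137, 119 and 179 to 210, 239, 247 and 268 CPM (0.64, SE 0.15, adjusted p = 0.0262). The phosphoglycerate kinase gene Pgk1 (chrX:106187100-106203699, plus strand) rose from 14.1, 12.8, 12 and 12.4 to 15.1, 19.1, 17.1 and 19.6 CPM (0.47, SE 0.11, adjusted p = 0.0287). Neither overlapped between groups. Eno1 lost its call without scrambled replicate 2 or 3 or knockdown replicate 2 or 4 (adjusted p up to 0.0785), and Pgk1 without any 1 of the scrambled libraries or knockdown replicate 2 or 4 (up to 0.0869).

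The enzymes between aldolase and enolase that did not pass were Tpi1, Gapdh and Pgam1. Gapdh, often used as a reference gene, measured 107, 87.7, 82.0 and 94.4 CPM in scrambled libraries and 109, 109, 108 and 107 CPM in knockdown libraries (0.23, SE 0.08, adjusted p = 0.0837; 0.0419 without scrambled replicate 1). The groups were separated by less than 1 CPM. Tpi1 measured 374 ± 51.5 and 368 ± 14.6 CPM (adjusted p = 0.890) and Pgam1 6.09 ± 1.09 and 7.33 ± 1.83 CPM (SD, n = 4 per group; adjusted p = 0.413). Gapdh, Pgk1 and Pgam1 have many near-identical processed pseudogenes in mouse, and their levels were 62.0, 7.04 and 3.43 CPM per kb in scrambled libraries, against 212 for Tpi1 and 60.9 for Eno1. Their absolute levels are uncertain where the authors' counting dropped or split shared reads. Rows named as copies of members held few counts, at most 33 in a library, for Gapdh-ps14.

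Lactate dehydrogenase, the most abundant of these enzymes per length, did not pass the test. Ldha, the subunit that favours lactate production, measured 964, 832, 762 and 959 CPM in scrambled libraries and 930, 973, 965 and 850 CPM in knockdown libraries, with overlapping groups (0.08, SE 0.09, adjusted p = 0.559). At 464 CPM per kb in scrambled and 490 in knockdown libraries it ranked first of the 35 genes in both groups. Ldhb, the heart-type subunit, had 102 counts over all 8 libraries and was not tested, and Eno2, the neuronal enolase, had 38. Lactate leaves through monocarboxylate transporters. Slc16a1 (MCT1) measured 341 ± 24.0 and 375 ± 32.2 CPM (SD, n = 4 per group; adjusted p = 0.234). Slc16a3 (MCT4), known as a lactate exporter of highly glycolytic cells, measured 53.7, 44.4, 23.4 and 10.5 CPM in scrambled libraries and 47.5, 75.9, 129 and 73.6 CPM in knockdown libraries. Its groups overlapped and the fitted change of 1.3 (SE 0.50) did not pass (adjusted p = 0.109).

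**Figure D2:**
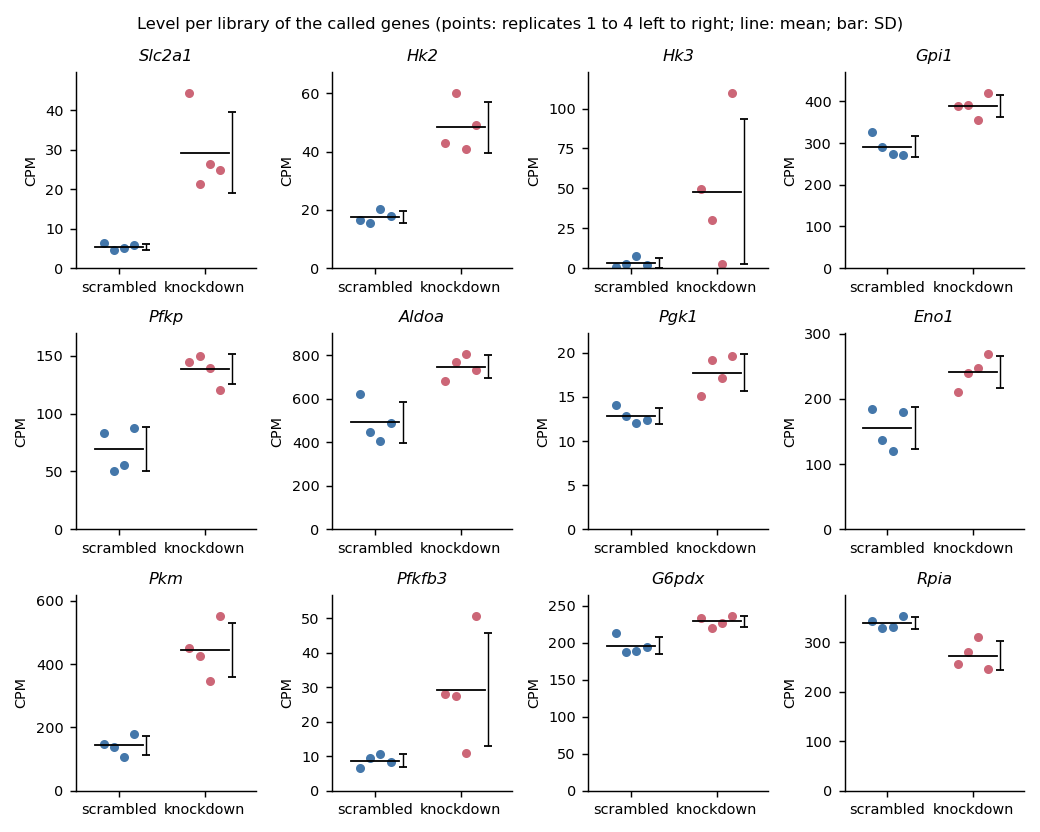
CPM in every library of the 12 called genes, scrambled in blue and knockdown in red, with points for replicates 1 to 4 from left to right, a line at the mean and a bar for the SD; each axis starts at 0. Hk3 is the only 1 of the 12 whose groups overlap, and Rpia the only 1 that is lower.

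Of the enzymes that steer glycolysis from the side, 1 rose. The bifunctional PFKFB enzymes make and break fructose 2,6-bisphosphate, the strongest activator of phosphofructokinase. Pfkfb3 (chr2:11471433-11554077, minus strand), the isoform with the highest kinase activity, measured 6.47, 9.36, 10.8 and 8.18 CPM in scrambled libraries and 28, 27.4, 11.01 and 50.7 CPM in knockdown libraries. Replicate 3 exceeded the highest scrambled library by little, and the rise came to 1.75 (SE 0.41, adjusted p = 0.0300). That call ended without any 1 of the scrambled libraries, without knockdown replicate 1 or 2 (adjusted p up to 0.0840), and with limma-voom (0.0866). Pfkfb2 measured 20.6 ± 2.95 and 19.8 ± 1.81 CPM (adjusted p = 0.777), and Pfkfb4 12.4 ± 3.88 and 8.30 ± 1.65 CPM (SD, n = 4 per group; adjusted p = 0.122). Pyruvate dehydrogenase kinases switch off the entry of pyruvate into the mitochondrial cycle, and none of the 3 passed by edgeR, limma-voom or DESeq2 on all 8 libraries (1 at an unadjusted p under 0.05, Pdk1). Pdk1, a HIF1 target, measured 184, 162, 157 and 181 CPM in scrambled libraries and 130, 144, 168 and 145 CPM in knockdown libraries (-0.22, SE 0.09, adjusted p = 0.111; 0.0210 without knockdown replicate 3). Pdk2 had a fitted change of -0.60 (SE 0.28, adjusted p = 0.166; 0.0306 without scrambled replicate 4) and Pdk3 of 0.14 (SE 0.08, adjusted p = 0.223). Bpgm, which makes the red cell regulator of haemoglobin's oxygen affinity from a glycolytic intermediate, measured 29.6 ± 3.35 and 35.9 ± 5.06 CPM (SD, n = 4 per group; adjusted p = 0.142).

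In the pentose phosphate pathway, the first enzyme rose and the ribose 5-phosphate isomerase fell. G6pdx (chrX:74409483-74429194, minus strand), the glucose 6-phosphate dehydrogenase that makes NADPH, measured 214, 188, 189 and 194 CPM in scrambled libraries and 234, 219, 226 and 237 CPM in knockdown libraries. The shift was small but without overlap (0.22, SE 0.06, adjusted p = 0.0344). The gene overlaps Ikbkg on the opposite strand, which had 25.5% of its counts and an adjusted p of 0.709. The other enzymes of the oxidative branch lay wholly above the scrambled libraries but did not pass: Pgls at 101 ± 13.6 and 120 ± 3.00 CPM (adjusted p = 0.102) and Pgd, the second NADPH-making dehydrogenase, at 199 ± 6.95 and 249 ± 37.8 CPM (SD, n = 4 per group; adjusted p = 0.0547). Pgd passed with DESeq2, with upper-quartile scaling, with the filter at 1 CPM and without knockdown replicate 3 (0.0170 at the lowest).

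Rpia (chr6:70765720-70792232, minus strand) opens the non-oxidative branch by making ribose 5-phosphate, the sugar of nucleotides. It fell from 343, 330, 330 and 354 to 256, 281, 312 and 245 CPM (-0.31, SE 0.08, adjusted p = 0.0312), with knockdown replicate 3 the nearest to the scrambled libraries. The transketolase gene Tkt (1178 ± 89.1 and 1249 ± 85.5 CPM, adjusted p = 0.450) and the transaldolase gene Taldo1 (513 ± 63.5 and 529 ± 56.1 CPM; SD, n = 4 per group; adjusted p = 0.812), which link the branch back to glycolysis, overlapped between groups. G6pdx lost its call without scrambled replicate 2, 3 or 4 or knockdown replicate 1, 2 or 4 (adjusted p up to 0.108), and Rpia without any 1 of the scrambled libraries or knockdown replicate 1 or 2 (up to 0.0728). Slc2a1, Hk2, Pfkp and Pkm passed in each of the 8 fits that left out 1 library, with adjusted p of at most 0.0427. When no filter on low counts was used, Hk3 (adjusted p = 0.148), Pgk1 (0.0683), Pfkfb3 (0.0850) and G6pdx (0.106) were no longer called.

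Summed over the isoforms of a step, the levels differed most at pyruvate kinase. Pyruvate kinase was 211% higher in the mean of the knockdown libraries, enolase 55.5%, aldolase 52.1%, phosphoglycerate kinase 38.2%, 6-phosphofructo-2-kinase 37.7%, glucose transport 35.1% and glucose 6-phosphate isomerase 33.5%. Of these, 6-phosphofructo-2-kinase and glucose transport overlapped between groups, the latter at 115 to 141 CPM in scrambled and 121 to 219 CPM in knockdown libraries. Summed hexokinase was lower, at 1243 ± 54.9 CPM in scrambled libraries and 1106 ± 117 CPM in knockdown libraries (SD, n = 4 per group), and Hk1 made up most of it. The oxidative pentose branch summed to 466 to 525 CPM in scrambled and 559 to 658 CPM in knockdown libraries, without overlap, while the non-oxidative branch overlapped at 1882 to 2205 and 1909 to 2289 CPM. All 35 genes together took 0.701 to 0.814% of the counts in scrambled and 0.830 to 0.894% in knockdown libraries. These sums are descriptions and carry no test.

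**Figure D3:**
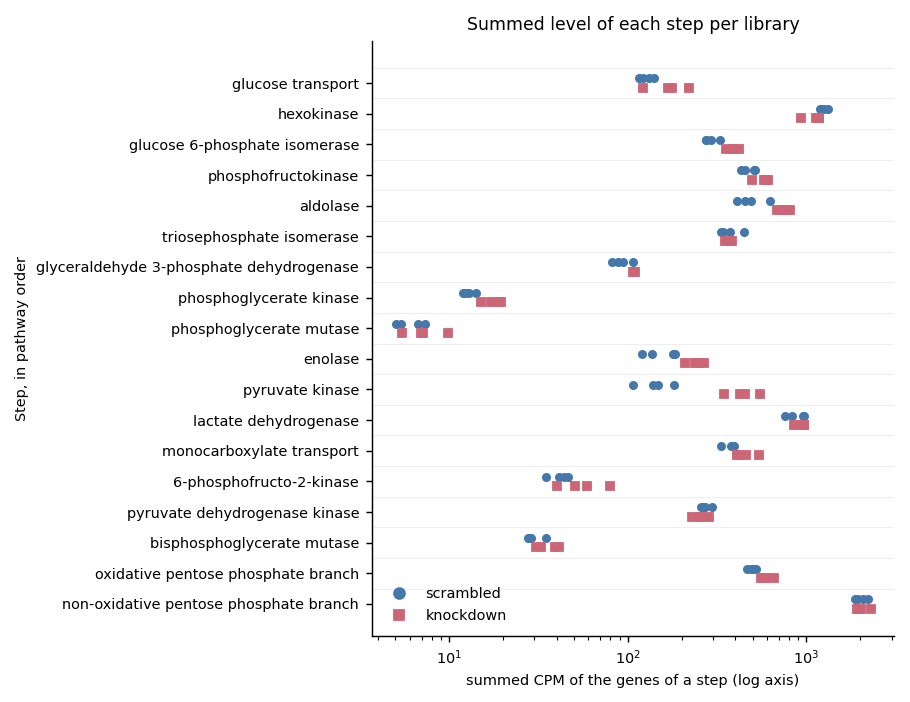
Summed CPM of the genes of each step in each library on a log axis, scrambled as blue circles and knockdown as red squares, in pathway order. Pyruvate kinase has the widest gap between groups, with 107 to 181 CPM against 347 to 553 CPM, and lactate dehydrogenase and the non-oxidative branch overlap.

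Whether isoforms of a step changed unequally was tested on the log2 ratio of their counts within a library, which does not depend on how libraries are scaled. Of 13 pairs, 6 did not overlap between groups, each at p = 0.0286 by an exact permutation test (two-sided), which is the lowest value 4 against 4 libraries can give. Adjusted over the 13 pairs this became 0.0619, so no pair passed. At that lowest p the adjusted value depends on how many pairs separate, not on the size of a shift. The test therefore cannot decide about a single pair. Relative to Hk1, Hk2 went from -6.13 ± 0.143 to -4.39 ± 0.403 (SD, n = 4 per group), a difference of 1.74 (SE 0.21). The Slc2a3 to Slc2a1 ratio went from 4.48 ± 0.120 to 2.31 ± 0.429, a difference of -2.17 (SE 0.22). Pfkp to Pfkl differed by 0.81 (SE 0.18) and Pfkp to Pfkm by 1.10 (SE 0.20). Pfkfb4 to Pfkfb3 differed by -2.13 (SE 0.55), and Pdk3 to Pdk1 by 0.37 (SE 0.09). The other 7 pairs overlapped, among them Hk3 to Hk1 (difference 3.61, SE 1.43, exact permutation p = 0.0857, adjusted p = 0.124) and Slc16a3 to Slc16a1 (1.33, SE 0.61, exact permutation p = 0.0571, adjusted p = 0.0929).

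**Figure D4:**
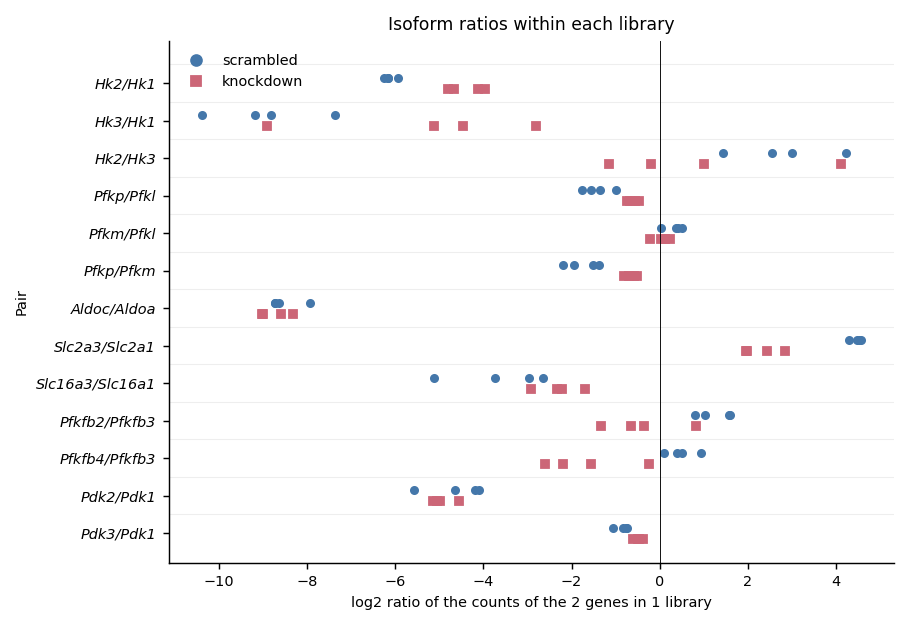
Log2 ratio of the counts of 2 isoforms in each library for 13 pairs, scrambled as blue circles and knockdown as red squares; a ratio of 0 means equal counts, not corrected for gene length. The pairs Hk2/Hk1 and Slc2a3/Slc2a1 show the clearest gaps between groups.

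Markers of early granulocytes moved with some of these genes. The markers Mpo, Elane, Prtn3, Ctsg, Ms4a3, Cebpe and Gfi1 summed to 35.9, 165, 333 and 84.1 CPM in scrambled libraries and 1973, 950, 86.7 and 3609 CPM in knockdown libraries 1 to 4. Their adjusted p by edgeR ran from 0.0522 for Elane to 0.0717 for Prtn3. Hk3 put all 8 libraries in the same order as this sum, with knockdown replicate 4 highest and knockdown replicate 3 next to scrambled replicate 4. Pfkfb3 and Pkm had the same order as the sum among the 4 knockdown libraries, and Slc2a1 and Hk2 did not. In knockdown replicate 3 the marker sum lay within the scrambled range. Slc2a1, Hk2 and Pkm measured 26.3, 40.9 and 347 CPM there, all above every scrambled library. The other members called higher, except Hk3, also exceeded every scrambled library there, Pfkfb3 by little (11.01 against at most 10.8 CPM). Among knockdown libraries, Hk2 and Pkm were lowest in replicate 3. In these bulk samples, more or fewer cells of a type cannot be told apart from more or less RNA per cell.

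With the granulocyte level as a covariate, 5 of the 11 members were still called higher, when 3.03% of all tested genes were: Slc2a1 (2.40), Hk2 (1.29), Pfkp (1.22), Aldoa (0.82) and Pkm (1.46), with adjusted p of 0.00845, 0.00819, 0.0287, 0.0154 and 0.0215. Hk3 went to 0.35 and Pfkfb3 to 0.55 on the log2 scale (adjusted p = 0.198 and 0.100), and Rpia to -0.16 (0.214). Eno1 (0.78), Gpi1 (0.37), G6pdx (0.24) and Pgk1 (0.46) did not pass either, with adjusted p of 0.0542, 0.0742, 0.122 and 0.127. Monocyte markers summed to 5.91 to 18.5 CPM in scrambled libraries and 14.3 to 195 CPM in knockdown libraries, and mature neutrophil markers to at most 43.5 CPM in any library. Megakaryocyte markers lay wholly higher in the knockdown, at 118 to 155 CPM in scrambled libraries and 176 to 269 CPM in knockdown libraries, with 233 CPM in replicate 3. Of 6 tested, Itga2b (log2 fold change 1.63, adjusted p = 0.00282) and Gp1ba (0.67, adjusted p = 0.0225) rose. Pecam1, listed as an endothelial marker, was at 2.92 to 5.90 CPM in scrambled and 9.33 to 45.3 CPM in knockdown libraries and rose (log2 fold change 2.68, adjusted p = 0.0123), while the endothelial gene Cdh5 was at 0.0278 CPM or less in all libraries. Immediate early genes, a sign of cell handling, overlapped at 1997 to 4198 and 2343 to 6341 CPM. The granulocyte covariate ran from -2.78 to 0.111 in scrambled libraries and was 2.28, 1.74, -1.8 and 3.45 in knockdown replicates 1 to 4. It followed the group except in knockdown replicate 3, so calls kept or lost with it cannot separate granulocytes from the shRNA. The part of granulocyte, erythroid, megakaryocyte and other cells in the members' changes was not tested.

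**Figure D5:**
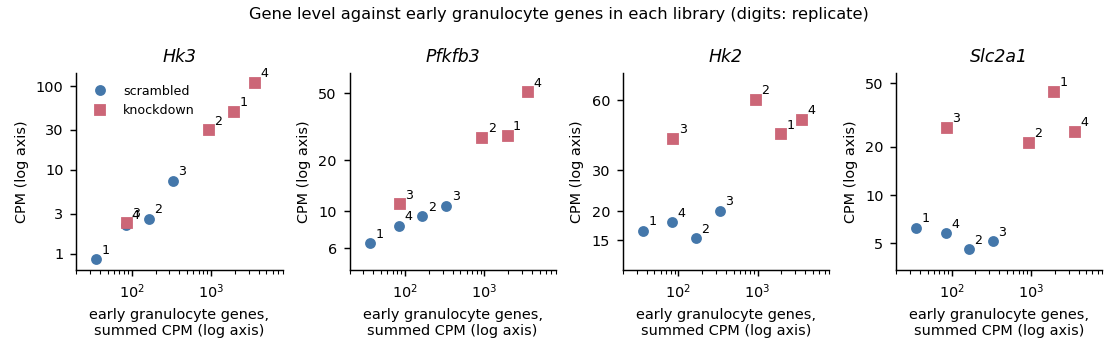
CPM of Hk3, Pfkfb3, Hk2 and Slc2a1 against the summed CPM of 7 early granulocyte genes in each library, both on log axes, scrambled as blue circles and knockdown as red squares with the replicate number. Hk3 climbs with the marker sum through both groups, while Hk2 and Slc2a1 of knockdown replicate 3 stay with the other knockdown libraries at a marker sum of 86.7 CPM.

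The promoters of Slc2a1 and Hk2, the members with the smallest p, are shown because HIF1 and MYC, known regulators of glycolytic genes, bind short motifs in such regions. They come from the 250 bases before the RefSeq start (GRCm38.p6), of which the first 236 are shown for Slc2a1. Capitals mark ACGTG or GCGTG, the core of the hypoxia response element, on either strand, so a core on the opposite strand reads CACGT or CACGC.
Slc2a1 (chr4:119108495-119108730, plus strand): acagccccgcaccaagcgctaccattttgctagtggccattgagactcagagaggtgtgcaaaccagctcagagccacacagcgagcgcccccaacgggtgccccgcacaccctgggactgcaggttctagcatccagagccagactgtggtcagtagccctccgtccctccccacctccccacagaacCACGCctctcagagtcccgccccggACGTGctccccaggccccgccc
Hk2 (chr6:82774455-82774704, minus strand): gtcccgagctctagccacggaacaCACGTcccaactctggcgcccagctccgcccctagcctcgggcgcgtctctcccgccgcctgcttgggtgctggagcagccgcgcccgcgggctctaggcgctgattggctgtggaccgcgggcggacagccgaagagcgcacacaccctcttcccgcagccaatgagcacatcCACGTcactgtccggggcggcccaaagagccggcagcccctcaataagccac
Slc2a1 has 1 of each core, GCGTG on the opposite strand beginning 61 bases and ACGTG beginning 36 bases before the RefSeq start. The GENCODE start given above lies upstream of the RefSeq start, so the last 20 bases printed are within the GENCODE gene and ACGTG spans that start. Hk2 has 2 ACGTG cores on the opposite strand, 226 and 52 bases before it. Pkm, next by p, has 2 RefSeq starts, of which the upstream window has neither core and the downstream window has ACGTG, 75 bases before its start.

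Over all members, RefSeq listed 51 windows for 34 genes, all but Slc2a3. ACGTG on either strand was in 19 windows (37.3%), against 21.9% of the 12217 windows of all tested genes and 16.6% of all 32851 windows. GCGTG was in 54.9%, against 44.6% and 28.2%. CACGTG, the E-box of MYC and MAX, which contains ACGTG, was in 11.8%, against 8.42% and 6.02%. By gene, ACGTG was in a window of 7 of the 11 members that rose and of 8 of the 20 listed members that were tested and not called, and GCGTG of 5 of 11 and 16 of 20. Such matches describe letters only and do not show binding.

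The wider sugar pathways were read from a list of 77 other genes, of which 61 were tested. Of these 15 rose (24.6%, background 8.02%) and 3 fell (background 7.29%), with a median log2 fold change of 0.09. This list too was chosen with earlier results of these data known, so its shares are descriptions. Among 14 tested regulators and hypoxia genes, Hif1a, the oxygen-regulated subunit of HIF1, measured 34.6, 34.9, 33.1 and 32.6 CPM in scrambled libraries and 53.0, 64.0, 66.9 and 82.3 CPM in knockdown libraries (0.98, SE 0.12, adjusted p = 0.00343). Vegfa (1.29, SE 0.31) and Car9 (1.39, SE 0.36), targets of HIF1, also rose, with adjusted p of 0.0314 and 0.0349. Vegfa was not called without a filter on low counts (0.0980). Car9 had few counts, at 0.416 to 0.831 CPM in scrambled and 0.920 to 2.34 CPM in knockdown libraries, and the filter at 1 CPM dropped it. The hypoxia genes Bnip3, Egln1 and Ankrd37 did not pass (adjusted p = 0.169, 0.199 and 0.588). Another hypoxia gene, Egln3, rose by 2.82 (SE 0.77, adjusted p = 0.0454 by edgeR). Its groups overlapped, with 2.19 CPM in knockdown replicate 3 and 0.833 to 2.77 CPM in scrambled libraries. Mlx, listed as a regulator, fell (-0.21, SE 0.05, adjusted p = 0.0352 by edgeR). Outside the regulators, Slc2a4 (1.16, SE 0.33), G6pc3 (0.38, SE 0.11), Prps2 (0.22, SE 0.06) and Tigar (2.52, SE 0.72) were also called higher. Their adjusted p by edgeR were 0.0445, 0.0441, 0.0464 and 0.0490. G6pc3 and Tigar overlapped between groups, with Tigar at 0.825 CPM in knockdown replicate 3 and 0.666 to 1.40 CPM in scrambled libraries. For Egln3, Mlx and these genes only the main fit is given. Myc measured 209, 201, 247 and 254 CPM in scrambled libraries and 204, 146, 96.3 and 251 CPM in knockdown libraries and did not pass (-0.39, SE 0.27, adjusted p = 0.350).

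Genes that feed sugar into glycolysis or store it were among those that rose. Galk1, the galactokinase, rose from 42.6 ± 5.66 to 80.2 ± 11.1 CPM and Pgm2, a phosphoglucomutase, from 9.80 ± 1.95 to 27.3 ± 6.97 CPM (SD, n = 4 per group). Their adjusted p by edgeR were 0.00489 and 0.00661. Of glycogen metabolism, the phosphorylase gene Pygb (0.80, SE 0.10, adjusted p = 0.00356), the gene of UDP-glucose synthesis Ugp2 (0.63) and the branching enzyme gene Gbe1 (0.88) rose, the last pair with adjusted p of 0.0224 and 0.0246. H6pd, the endoplasmic reticulum counterpart of G6pdx, rose by 0.58 (SE 0.12, adjusted p = 0.0165), and Gpd2, of the glycerol phosphate shuttle, by 0.48 (SE 0.10, adjusted p = 0.0207). Minpp1, a phosphatase of inositol phosphates and bisphosphoglycerate, fell from 658 ± 19.7 to 454 ± 78.8 CPM, and the transporter gene Slc2a8 fell from 36.5 ± 4.00 to 23.7 ± 4.28 CPM (SD, n = 4 per group; adjusted p = 0.0179 and 0.0214). Hif1a, Pygb, Galk1 and Pgm2 passed in all 8 fits that left out 1 library (adjusted p at most 0.0310). Without scrambled replicate 2, H6pd, Minpp1, Gpd2, Slc2a8, Ugp2, Gbe1, Vegfa and Car9 lost their calls (up to 0.0929). Ugp2, Gbe1, Vegfa and Car9 lost it also without scrambled replicates 1 and 3, Slc2a8 without those and knockdown replicate 1, Minpp1 without scrambled replicate 1, and Gbe1, Vegfa and Car9 without knockdown replicate 2. Car9 lost it as well without scrambled replicate 4 or knockdown replicate 1 or 4. With the granulocyte covariate, H6pd (0.38, adjusted p = 0.132), Ugp2 (0.40, 0.169), Gbe1 (0.52, 0.178), Car9 (0.63, 0.358), Slc2a8 (-0.40, 0.135) and Minpp1 (-0.31, 0.0622) were no longer called.

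The authors' deposited table calls 12 members higher (background 11.9%) and 1 lower (background 9.43%) at an adjusted p of 0.05. All 12 members called here are among these 13 in the same direction, and Pgd is the other. The log2 fold changes in the authors' deposited table are 2.18 for Slc2a1, 1.53 for Pkm, 1.40 for Hk2 and 1.38 for Pfkfb3. For Hk3 the authors' deposited table gives 0.99, against 3.85 here.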

How the data were processed

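RNA of 8 sorted samples was measured, 4 per group. The authors deposited whole-number read counts per gene, without normalization. The table also holds the authors' mean normalized signal, their log2 fold changes, Wald score and p-values. CASAVA 1.8 and DESeq2 1.18.1 were used, per the submitters' processing notes. The aligner, counting program, strand setting and build: not given in the sources used here, so reads of antisense and near-identical genes cannot be told apart. The number in each count column's name gave its sample through the sample's description. Replicates are separate mice. The labels name a pair of ribosomal depletion kits without tying either to a library, so the kit's part in any difference was not tested.

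Counts were tested with edgeR 4.0.16 (R 4.3.3): filterByExpr (13462 genes kept), TMM factors of 0.965 to 1.03, a robust quasi-likelihood fit with group as the only term, and Benjamini-Hochberg adjustment over all tested genes. The standard error is the log2 fold change divided by the root of the F statistic. Isoform ratios had an offset of 0.5 counts and exact permutation. Alternatives used DESeq2 1.42.0, limma 3.58.1 and left-out libraries. Lengths are merged exons of GENCODE basic models on GRCm38, matched by gene ID. The code was tested on simulated data. Named genes were all called members, their isoform partners, and at most 12 called other genes by smallest p. Egln3, Mlx, Slc2a4, G6pc3, Prps2 and Tigar, also called, were added. The members and lists were chosen with earlier results of these data known.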

Additional observations from a re-analysis of the deposited data

Results flagged for a closer look

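Each group of 4 libraries was checked for a library apart from its group, for 33 members and 13 isoform ratios. Of 92 groups 5 had a library whose gap to its nearest neighbour, as a share of the group's range, passed Dixon's limit; chance gives about 1 in 20. In scrambled libraries, Pfkfb2 (0.912 of the range) and Bpgm (0.857) were high in replicate 4, at 25.0 and 34.6 CPM. Aldoc (0.879) and the Aldoc to Aldoa ratio (0.876) were high in scrambled replicate 1, with Aldoc at 2.50 CPM. In knockdown libraries Taldo1 was high in replicate 3 (0.858), at 612 CPM. None of these 4 genes was called by edgeR, limma-voom or DESeq2 on all 8 libraries, and 1, Bpgm, had an unadjusted p under 0.05 by edgeR.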

How the results depend on the processing

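The 12 called members kept their direction in all 16 alternative fits. DESeq2 called 2023 genes higher and 1528 lower, against 1080 and 982. Without a low count filter 7 members were higher (3.02% of all 26258 genes then tested), and with the granulocyte covariate 5 were higher and 0 lower by edgeR (1 lower at an unadjusted p under 0.05; DESeq2 and limma-voom, without the covariate, called 1). That fit called 408 genes higher and 186 lower, and of the other pathway genes 8 higher and 1 lower. The shared replicate numbers did not pair the mice: same-numbered deviations correlated at -0.42, 0.022, -0.558 and -0.22. With a replicate block, 195 genes were higher and 205 lower, 3 members higher (Slc2a1, Hk2 and Pkm) and 0 lower (1 unadjusted), and 3 other pathway genes higher and 0 lower (5 unadjusted). Leaving out 1 library gave 275 to 1956 genes higher and 251 to 1469 lower, 4 to 13 members higher and 0 to 2 lower, and 4 to 19 other pathway genes higher and 0 to 5 lower. Among uncalled members the sign turned for 4. With 1 library left out, Pfkm ran from -0.118 to 0.0406 (without knockdown replicate 4), Tpi1 from -0.0850 to 0.0608 (above 0 without scrambled replicate 1 or knockdown replicate 1), Pfkfb2 from -0.106 to 0.02997 (without scrambled replicate 4), and Taldo1 from -0.0536 (below 0 without scrambled replicate 4 or knockdown replicate 3) to 0.0877. Pfkm was 0.11 and Tpi1 0.10 with the covariate, and Tpi1 was 0.0063 with upper-quartile factors; the cause was not tested. Genes with few counts, such as Aldoc with 429 in all, are limited by depth.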
